A study of Saccharomyces cerevisiae with 24 samples.

Results

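The arrays described here follow yeast cells between 15 and 30 min after a shift to 37C. They are the 4 arrays at 30 min and the 4 arrays at 15 min, paired by strain, 8 of the 24 arrays of the series. The strains were prp17 null, prp17-1 and prp22-1, each mutant for a splicing factor, and SS330, used as their comparison strain. All were Saccharomyces cerevisiae held at 23C (0 min) and then at 37C for 5, 15, 30, 60 or 120 min, with 1 array per strain and time. Each array set total RNA of the strain (Cy5) against yeast genomic DNA (Cy3). The values are log ratios, taken as base 2, in which a difference of 1 is a factor of 2, and every array was centred on its median. Further genotype of the strains is not stated in the labels. The RNA came from whole cultures, so fewer cells holding an mRNA and less of it per cell cannot be told apart. Each strain and time is 1 culture sample, so the spread behind every p-value below is the scatter of the strains about a common course. Where a strain's change is set against that of SS330, this scatter comes from 0, 5, 60 and 120 min only. Where it is set against the mean of the others, the strain's own arrays at 15 and 30 min do not enter it. Strain, culture and array cannot be told apart.

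A sudden rise in temperature makes yeast induce chaperones, which refold damaged proteins, together with trehalose, glycogen and general stress genes, while it turns down the genes that build ribosomes. In unimpaired cells this response is a pulse, and transcript levels return towards those before the shift as the cells adapt. PRP17, listed as CDC40, encodes a spliceosome protein used in the later of the splicing reactions. The helicase made from PRP22 sets the finished mRNA free. Most introns of this yeast by expression lie in ribosomal protein genes.

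CDC40 had log2 ratios of -1.88 at 30 min and -0.63 at 15 min in prp17 null, the lowest of the 4 strains at both times. It had 0.41 and 0.68 in prp17-1, 0.04 and -0.15 in prp22-1 and 0.41 and 0.29 in SS330 at 30 and 15 min. The low ratio in prp17 null was also one of the signs from which the direction of the ratio was read, so it is no separate check of that label. PRP22 had -0.48 and 0.50 in prp22-1 and -0.05 and -0.10 in SS330 at 30 and 15 min. Neither gene's change from 15 to 30 min passed in limma over the 4 strains (CDC40 -0.30, adjusted p = 0.595, and PRP22 -0.09, adjusted p = 0.875). Each of these changes turned without the strain mutant for the gene, that of CDC40 to 0.014 without prp17 null and that of PRP22 to 0.20 without prp22-1.

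Values were unevenly present. At 30 and 15 min the share of the 6350 probes with a value was 79.7% and 90.4% for prp17 null, 93.8% and 97.4% for prp17-1, 98.4% and 77.3% for prp22-1, and 98.0% and 92.7% in SS330. Of the probes, 5054 were tested, 4512 of them with a gene name, and 3521 of the 5054 had all 8 values. The SD over tested probes at 30 and 15 min was 1.02 and 0.81 for prp17 null, 0.74 and 0.86 for prp17-1, 0.65 and 0.91 for prp22-1, and 0.52 and 0.80 in SS330. The spread of the array was thus wider at 30 min than at 15 min in prp17 null and narrower in the other 3 strains. Quantile normalization, which gives every array the same spread, changes many results below, and its values are given beside the main list medians.

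On values centred on the median, most early responses reversed their course between 15 and 30 min in SS330, prp17-1 and prp22-1. In prp17 null they did so in fewer than 50% of the probes. With quantile normalization 56.6% of the early rises and 65.9% of the early falls went back in prp17 null. The early response was taken from the change between 0 and 5 min, on arrays that do not enter the change from 15 to 30 min. In limma 528 of 5054 probes (10.4%) were called higher at 5 min and 752 (14.9%) lower, at an adjusted p under 0.05. Going back means here that the difference of 30 minus 15 min had the sign opposite to this first change, whatever its size. Of the early rises with both values, 20.7% went back in prp17 null (102 of 493), 76.7% in prp17-1 (395 of 515), 75.6% in prp22-1 (350 of 463) and 91.1% in SS330 (448 of 492). Of the early falls, 40.0% went back in prp17 null (270 of 675), 87.1% in prp17-1 (629 of 722), 84.1% in prp22-1 (594 of 706) and 94.1% in SS330 (664 of 706). Over all tested probes 55.6% were higher at 30 than at 15 min in prp17 null, 53.0% in prp17-1, 51.4% in prp22-1 and 52.2% in SS330.

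On values centred on the median, the median size of the return was largest in SS330 and larger in prp22-1 than in prp17-1, for the rises and for the falls. These sizes were not repeated with quantile normalization. With it 54.2% of the early rises went back in prp22-1 and 69.3% in prp17-1, and of the early falls 75.9% and 74.7%. For the early rises the median difference of 30 minus 15 min was 0.27 in prp17 null, -0.21 in prp17-1, -0.34 in prp22-1 and -0.51 in SS330. For the early falls it was -0.07 in prp17 null, 0.34 in prp17-1, 0.46 in prp22-1 and 0.52 in SS330, against 0.04, 0.02, 0.02 and 0.02 over all tested probes in the same strains. By 30 min the median distance of the early rises from time 0 was 1.04 in prp17 null, 0.54 in prp17-1, 0.50 in prp22-1 and 0.30 in SS330. For the early falls it was -0.86 in prp17 null, -0.51 in prp17-1, -0.33 in prp22-1 and -0.15 in SS330.

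**Figure D1:**
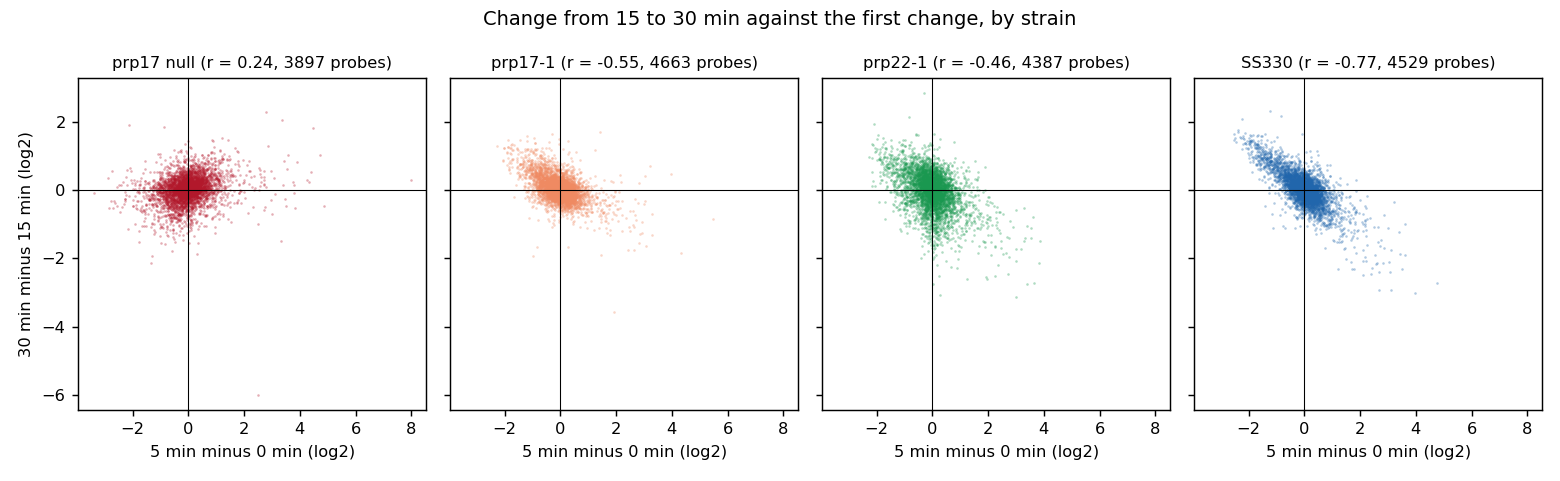
Each point is a tested probe, with the log2 change from 0 to 5 min on the x axis and from 15 to 30 min on the y axis, in 1 panel per strain. Points run from upper left to lower right in prp17-1 (r = -0.55), prp22-1 (r = -0.46) and SS330 (r = -0.77), and not in prp17 null (r = 0.24).

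The same was seen over all tested probes. Pearson's r across probes between the change from 15 to 30 min and the strain's own change from 0 to 5 min was 0.24 in prp17 null (3897 probes), -0.55 in prp17-1 (4663), -0.46 in prp22-1 (4387) and -0.77 in SS330 (4529). Probes of an array share its labelling and scan and are not independent replicates. After quantile normalization the r was -0.07 in prp17 null, -0.35 in prp17-1, -0.20 in prp22-1 and -0.43 in SS330. The shares then came to 56.6% of the early rises and 65.9% of the early falls in prp17 null, against 73.8% and 83.3% in SS330. The sign of the typical change in prp17 null therefore depends on whether the wider spread of its array at 30 min is kept, and the cause of that spread was not tested. With quantile normalization prp22-1 had the lowest share of early rises going back (54.2%).

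Probes that went back in 3 strains and not in the fourth mostly did so in all but prp17 null, the strain with the lowest shares above. Of the 553 early falls with all 8 values, 181 went back in all 4 strains and 230 in all but prp17 null. The counts were 14 for all but prp17-1, 15 for all but prp22-1 and 9 for all but SS330, and 5 went back in none. Of the 379 early rises with all 8 values, 50 went back in all 4 strains and 143 in all but prp17 null, against 6, 13 and 7 in all but prp17-1, prp22-1 and SS330. These counts rest on signs in single arrays, on values centred on the median only. Whether they exceed what the share of each strain alone would give was not tested, so they do not show a shared set of genes.

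Gene by gene, the 4 strains together gave 1 call among 5054 probes (0.0198%), with 637 at an unadjusted p under 0.05. It was IMP3 (YHR148W), which encodes a protein of the U3 small nucleolar ribonucleoprotein that processes the rRNA of the small subunit. At 30 min its log2 ratio was -0.55 in prp17-1, 0.10 in prp22-1 and 0.29 in SS330, and prp17 null had no value. At 15 min the values were -1.40 in prp17 null, -1.24 in prp17-1, -0.97 in prp22-1 and -0.83 in SS330. The values at 30 min, from prp17-1, prp22-1 and SS330 only, all lay above every value at 15 min. The call therefore holds no change from 15 to 30 min in prp17 null. The means were -0.05 ± 0.44 at 30 min (SD, n = 3) and -1.11 ± 0.26 at 15 min (SD, n = 4), and the rise in limma was 0.95 ± 0.15 (SE, adjusted p = 0.0165). IMP3 had fallen by 5 min, so it is also the 1 probe called in both steps with opposite signs. Its call was lost with quantile normalization, without the strain block and without any 1 of prp17-1, prp22-1 or SS330. The count over probes was 7 without the prp22-1 array at 15 min and 0 without prp17-1 or SS330.

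Without prp17 null the count was 221 of 5054 (4.37%), with 161 probes higher (3.19%) and 60 lower (1.19%) at 30 min. This comparison of 3 strains was chosen after the counts without each strain were seen. Of the 161 rises 149 had fallen by 5 min in the same 3 strains, which is 92.5% of the rises and 19.3% of the 771 early falls (15.3% of tested probes). Of the 60 falls 52 had risen by 5 min, 86.7% of the falls and 10.3% of the 503 early rises (9.95%). None of the 221 moved on in the direction of a called first change, and for 20 the first change was not called. With quantile normalization 0 of the 221 passed (limma, smallest adjusted p = 0.101), although all 221 kept their sign. Without the strain block the count was 81. With only 2 of the 3 strains it was 62 without prp17-1, 1 without prp22-1 and 1 without SS330.

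The prp17 null values did not enter the fit behind these calls, but the strain was left out after the counts without each strain were seen. Its movement is therefore no separate check of the calls. In prp17 null the 221 moved about as often one way as the other. Of the 147 rises with both values in prp17 null, 68 were higher at 30 min, with a median of -0.06 against 0.04 over all tested probes. Of the 52 falls with both values 23 were lower, with a median of 0.12. By more than 0.5 log2 units, 8 of the rises moved the same way in prp17 null and 20 the other way, and 119 lay within 0.5. For the falls the counts were 2, 7 and 43.

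Among the rises, 49 of 161 belong to the lists of ribosome assembly, ribosomal protein, RNA polymerase I and III and translation factor genes, which hold 283 of the tested probes. Of the small subunit processome genes 18 of 44 rose and 0 fell, and of the large subunit assembly factors 19 of 48 rose and 0 fell. The median difference of 30 minus 15 min over the processome genes was -0.22 in prp17 null, 0.59 in prp17-1, 0.57 in prp22-1 and 0.76 in SS330. With quantile normalization it turned to 0.10 in prp17 null, and was 0.27 in prp17-1, 0.33 in prp22-1 and 0.55 in SS330. For the large subunit assembly factors it was -0.26 in prp17 null, 0.69 in prp17-1, 0.53 in prp22-1 and 0.78 in SS330, and with quantile normalization 0.05, 0.32, 0.22 and 0.46 in the same strains.

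NOP13 encodes a nucleolar protein of particles that become the large subunit. Its log2 ratio at 30 min was -2.03 in prp17 null, -1.38 in prp17-1, -1.06 in prp22-1 and -0.99 in SS330. At 15 min the 4 values lay close together, at -2.32, -2.62, -2.31 and -2.35 in the same strains. All 4 values at 30 min were above all 4 at 15 min, with prp17 null nearest to its own 15 min value. Over the 3 strains without prp17 null the rise was 1.28 ± 0.18 (SE, limma adjusted p = 0.00531), and over the 4 strains it was 1.04 (adjusted p = 0.0613).

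BRX1, another large subunit assembly factor, had -1.98 at 30 min and -1.52 at 15 min in prp17 null. The values at 30 and 15 min were -1.34 and -2.52 in prp17-1, -0.94 and -1.90 in prp22-1, and -0.43 and -1.76 in SS330. The prp17 null value at 30 min lay within the range of the 15 min values, and the other 3 lay above all of them. The rise without prp17 null was 1.16 ± 0.25 (SE, limma adjusted p = 0.0223).

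The largest rise by the naming rule was that of AAH1, the adenine deaminase gene of purine salvage, at 1.57 ± 0.27 (SE, limma adjusted p = 0.0115). Its differences of 30 minus 15 min were -0.31 in prp17 null, 1.15 in prp17-1, 1.95 in prp22-1 and 1.62 in SS330. A pair of genes for dedicated chaperones of ribosomal proteins rose with it, SYO1, whose product carries Rpl5 and Rpl11, by 1.29 and ACL4, whose product binds Rpl4, by 1.21. Both lay at or below 0 in prp17 null, with differences of -0.13 for SYO1 and -0.16 for ACL4. The small subunit genes NAN1 (1.21), NOP14 (1.16) and ENP1 (1.15) rose in the 3 strains, and their differences in prp17 null were 0.02, 0.16 and -0.15. KRE33, the cytidine acetyltransferase of the 18S rRNA, rose by 1.14, and YTM1 of large subunit assembly by 1.13, with -0.52 and -0.39 in prp17 null.

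RNA polymerase I makes the large rRNA precursor and RNA polymerase III the 5S rRNA and tRNAs. Of 30 genes for this machinery 4 rose in the 3 strains and 0 fell, among them the polymerase I subunit genes RPA49 (1.09) and RPA135 (0.99), and RPC19 (0.90), which encodes a subunit of both enzymes. The list median was -0.12 in prp17 null, 0.32 in prp17-1, 0.15 in prp22-1 and 0.32 in SS330, and with quantile normalization 0.04, 0.20, 0.08 and 0.27. Of 36 translation factor genes 6 rose and 0 fell, with GCD7 of the initiation factor eIF2B at 0.76, the termination factor gene SUP45 at 0.74 and TIF3, the eIF4B gene, at 0.74. Their list median was 0.01 in prp17 null, 0.33 in prp17-1, 0.27 in prp22-1 and 0.61 in SS330. With quantile normalization it was 0.19 in prp17 null, 0.07 in prp17-1, 0.17 in prp22-1 and 0.21 in SS330, so the order of prp17 null and prp17-1 turned.

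Ribosomal protein genes separated the strains differently from the assembly genes. All 119 with both values were higher at 30 min in SS330, with a median difference of 1.15 and a range of 0.06 to 2.32. In prp17-1 91 of 122 were higher (median 0.38), in prp22-1 57 of 125 (median -0.06) and in prp17 null 10 of 115 (median -0.42). The median log2 ratio of the genes at 30 and 15 min was -1.87 and -1.35 for prp17 null, -1.89 and -2.03 for prp17-1, -1.40 and -1.41 for prp22-1, and -0.76 and -1.91 in SS330. In prp22-1 the assembly genes were thus higher at 30 min as in SS330, while the ribosomal protein genes were about where they had been at 15 min. With quantile normalization the medians over the small and large subunit lists were -0.11 and -0.06 for prp17 null, 0.06 and 0.12 for prp17-1, -0.31 and -0.23 for prp22-1, and 0.50 and 0.53 in SS330.

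Of the ribosomal protein genes, 2 of 70 of the large subunit were called higher in the 3 strains, and 0 of 55 of the small subunit. Over all tested probes 3.19% were called higher, so ribosomal protein genes were not called more often. The calls among them were the paralogs RPL11A and RPL11B, whose probes may share signal. RPL11B had -1.88 at 30 min and -1.39 at 15 min in prp17 null, -1.37 and -2.51 in prp17-1, -0.82 and -1.47 in prp22-1, and -0.44 and -2.03 in SS330. The rise without prp17 null was 1.13 ± 0.30 for RPL11B and 0.98 ± 0.26 for RPL11A (SE, limma adjusted p = 0.0488 and 0.049). No ribosomal protein gene passed in the direct comparison of any mutant's change with that of SS330.

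**Figure D2:**
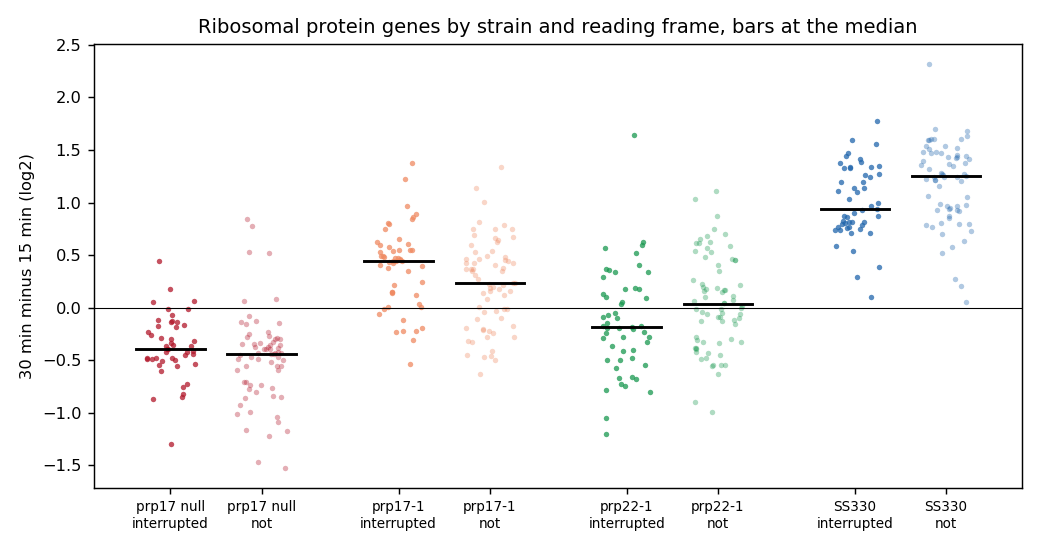
Points are ribosomal protein genes, with the log2 difference of 30 minus 15 min on the y axis, by strain and by reading frame. A frame counts as interrupted where its genomic length cannot be divided by 3, so the other set can also hold genes with introns. Bars mark medians. All SS330 points lie above 0, while the prp22-1 points lie on both sides of 0 and most prp17 null points below it.

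The splicing defect of the mutants gave a reason to split these genes by reading frame, a split made after the lists were seen. Each probe gives 1 ratio of total RNA, so unspliced and spliced RNA of a gene cannot be told apart. A frame counted as interrupted where its genomic length could not be divided by 3, which misses introns whose length keeps the frame. The other set can thus also hold genes with introns, and how many was not counted. Over the 53 genes with an interrupted frame the median difference was -0.39 in prp17 null, 0.45 in prp17-1, -0.18 in prp22-1 and 0.94 in SS330. Over the 72 others it was -0.44 in prp17 null, 0.24 in prp17-1, 0.03 in prp22-1 and 1.25 in SS330. In both sets prp17 null was lowest, then prp22-1, prp17-1 and SS330, and whether the sets differ was not tested. The split was not repeated with quantile normalization. Over the small and large subunit lists that scaling put prp22-1 lowest (-0.31 and -0.23), below prp17 null (-0.11 and -0.06). Of 75 intron-containing genes outside the ribosome 0 rose and 1 fell in the 3 strains, against 3.19% and 1.19% of all tested probes. The list medians were -0.17 in prp17 null, -0.03 in prp17-1, -0.15 in prp22-1 and 0.03 in SS330.

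The falls were led by genes of protein folding and stress. Of the 60 falls in the 3 strains 13 belong to the lists of chaperone, trehalose, glycogen and general stress genes, which hold 85 of the tested probes. Of the 9 cytosolic Hsp70 and Hsp110 genes and their partners 4 fell and 0 rose. Their median difference of 30 minus 15 min was 0.24 in prp17 null, -0.61 in prp17-1, -1.49 in prp22-1 and -1.29 in SS330. With quantile normalization it turned to -0.12 in prp17 null, and was -0.42 in prp17-1, -0.98 in prp22-1 and -0.70 in SS330.

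SIS1, an Hsp40 that delivers substrates to Hsp70, had a log2 ratio of 3.55 at 30 min and 3.82 at 15 min in prp17 null. The ratios at 30 and 15 min were 2.40 and 3.67 in prp17-1, 0.51 and 3.25 in prp22-1, and 0.36 and 3.38 in SS330. At 30 min prp22-1 and SS330 were near their values before the shift, 0.57 and 0.38, prp17-1 lay between, and prp17 null was still within the range of 15 min. Without prp17 null the fall was -2.34 ± 0.38 (SE, limma adjusted p = 0.0109), and over the 4 strains it was -1.82 (adjusted p = 0.0613).

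BTN2 encodes a factor that sorts aggregated proteins. It had 4.29 at 30 min and 4.75 at 15 min in prp17 null, 2.31 and 4.14 in prp17-1, 0.74 and 2.24 in prp22-1, and -0.14 and 2.88 in SS330. The fall without prp17 null was -2.12 ± 0.52 (SE, limma adjusted p = 0.0334), and again prp17 null was highest and prp17-1 next at 30 min. The Hsp70 exchange factor gene FES1 had no value in prp17 null at 15 min and fell by 1.80 in the other 3 strains. STI1, which links Hsp70 to Hsp90, fell by 1.93, with differences of -0.46 in prp17 null, -0.57 in prp17-1, -3.12 in prp22-1 and -2.09 in SS330. The Hsp40 gene YDJ1 fell by 1.19, with 0.01 in prp17 null.

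**Figure D3:**
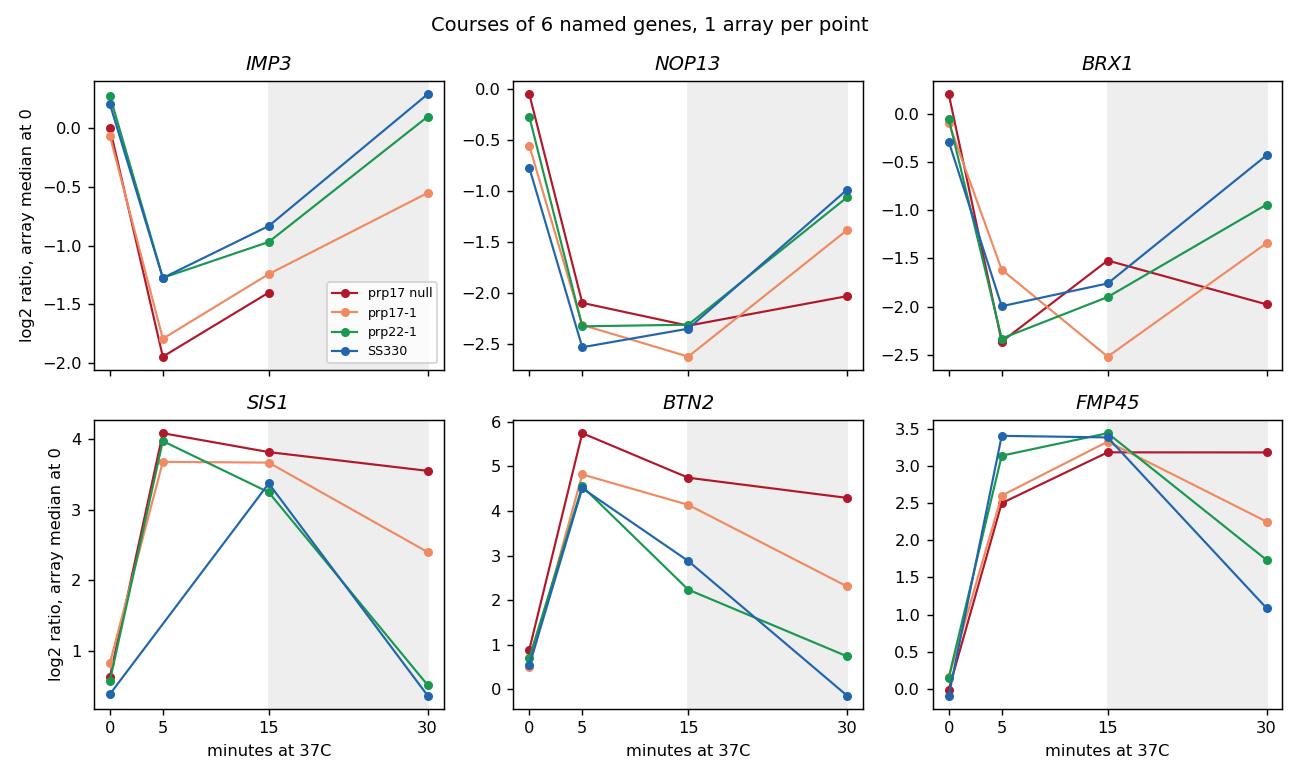
Log2 ratios of 6 genes at 0 min (23C) and 5, 15 and 30 min at 37C, 1 array per point, with the step from 15 to 30 min shaded and lines drawn across missing values. IMP3, NOP13 and BRX1 are higher at 30 than at 15 min and SIS1, BTN2 and FMP45 lower in prp17-1, prp22-1 and SS330, while prp17 null differs by less than 0.5 in each gene it has values for.

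The other chaperone lists had few calls. Of the 9 Hsp90 and cochaperone genes STI1 fell and CPR7, a cyclophilin, rose by 0.60, and the list median was 0.07 in prp17 null, -0.21 in prp17-1, -0.67 in prp22-1 and -0.32 in SS330. With quantile normalization that median turned to -0.09 in prp17 null and 0.23 in SS330, and was -0.04 in prp17-1 and -0.14 in prp22-1. Of the 5 disaggregase, small heat shock protein and sorting factor genes only BTN2 was called, with list medians of -0.05 in prp17 null, -0.92 in prp17-1, -1.45 in prp22-1 and -2.08 in SS330, and of -0.27, -0.50, -0.82 and -1.10 with quantile normalization. The mitochondrial Hsp40 gene MDJ1 fell by 0.90 in the 3 strains, 1 of 8 mitochondrial chaperone genes, and had a difference of 1.30 in prp17 null. KAR2, the Hsp70 of the endoplasmic reticulum, fell by 1.12, 1 of 10 folding genes of that compartment, and prp17 null had -0.48.

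Of 28 general stress genes 2 fell in the 3 strains, STF2 (-1.27) and SIP18 (-0.70), both encoding hydrophilic stress proteins. The list median was 0.40 in prp17 null, -0.33 in prp17-1, -0.55 in prp22-1 and -0.91 in SS330. With quantile normalization the strains lay closer together, at -0.05 in prp17 null, -0.04 in prp17-1, -0.03 in prp22-1 and -0.24 in SS330. Of 10 glycogen genes GLC3, the branching enzyme, fell by 1.23 and GSY2, a glycogen synthase, by 1.04. The glycogen median was 0.24 in prp17 null, -0.32 in prp17-1, -0.52 in prp22-1 and -0.67 in SS330, and with quantile normalization -0.12, -0.07, -0.18 and -0.71. Of 7 trehalose genes TPS1, the trehalose phosphate synthase, fell by 1.23, and the median was 0.56 in prp17 null, -0.12 in prp17-1, -0.79 in prp22-1 and -0.75 in SS330. With quantile normalization the trehalose median was 0.05 in prp17 null, -0.06 in prp17-1, -0.08 in prp22-1 and -0.40 in SS330.

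The remaining named falls lay outside these lists. FMP45, a membrane protein gene of the SUR7 family, had 3.19 at both 30 and 15 min in prp17 null. It had 2.25 and 3.33 in prp17-1, 1.74 and 3.45 in prp22-1, and 1.09 and 3.39 in SS330 at 30 and 15 min. All 3 lower values were below every value at 15 min, and the fall was -1.70 ± 0.26 (SE, limma adjusted p = 0.00635). RGI1, a gene induced in respiratory growth, fell by 1.90 and EMI2, a glucokinase-like gene, by 1.68 in the 3 strains. Their differences in prp17 null were 0.16 and -0.30.

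Calls in other pathways were few, to be read against 3.19% of all tested probes that rose and 1.19% that fell in the 3 strains. Of 45 amino acid synthesis genes 4 rose in the 3 strains and 0 fell, with PRO1 at 0.95, HIS1 at 0.88 and HIS7 at 0.77. The cell cycle genes SVS1 (0.98) and CLN2 (0.97), a G1 cyclin, were the 2 of 26 G1 and S phase genes that rose, and HOF1 (0.58), of cytokinesis, the 1 of 18 mitotic genes. HXK2, the main hexokinase, fell by 0.88, 1 of 25 glycolysis genes, and SDH3 of succinate dehydrogenase by 0.59, 1 of 19 citric acid cycle genes. The exosome gene RRP40 (0.81) and the mRNA export helicase gene DBP5 (0.79) were the 2 of 41 RNA decay and export genes that rose. Of 45 spliceosome genes 0 rose and 1, PRP3 of the U4/U6 particle, fell by 0.76, with list medians of 0.12 in prp17 null, 0.03 in prp17-1, 0.18 in prp22-1 and 0.09 in SS330. No gene was called in the lists of histones, proteasome, mitochondrial ribosome, respiratory chain, ergosterol and sulfur genes in the 3 strains. Over the 32 proteasome genes the median was 0.21 in prp17 null, 0.09 in prp17-1, -0.17 in prp22-1 and -0.49 in SS330, with 30 of 32 lower at 30 min in SS330. With quantile normalization it was 0.01 in prp17 null, 0.10 in prp17-1, -0.01 in prp22-1 and -0.31 in SS330.

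**Figure D4:**
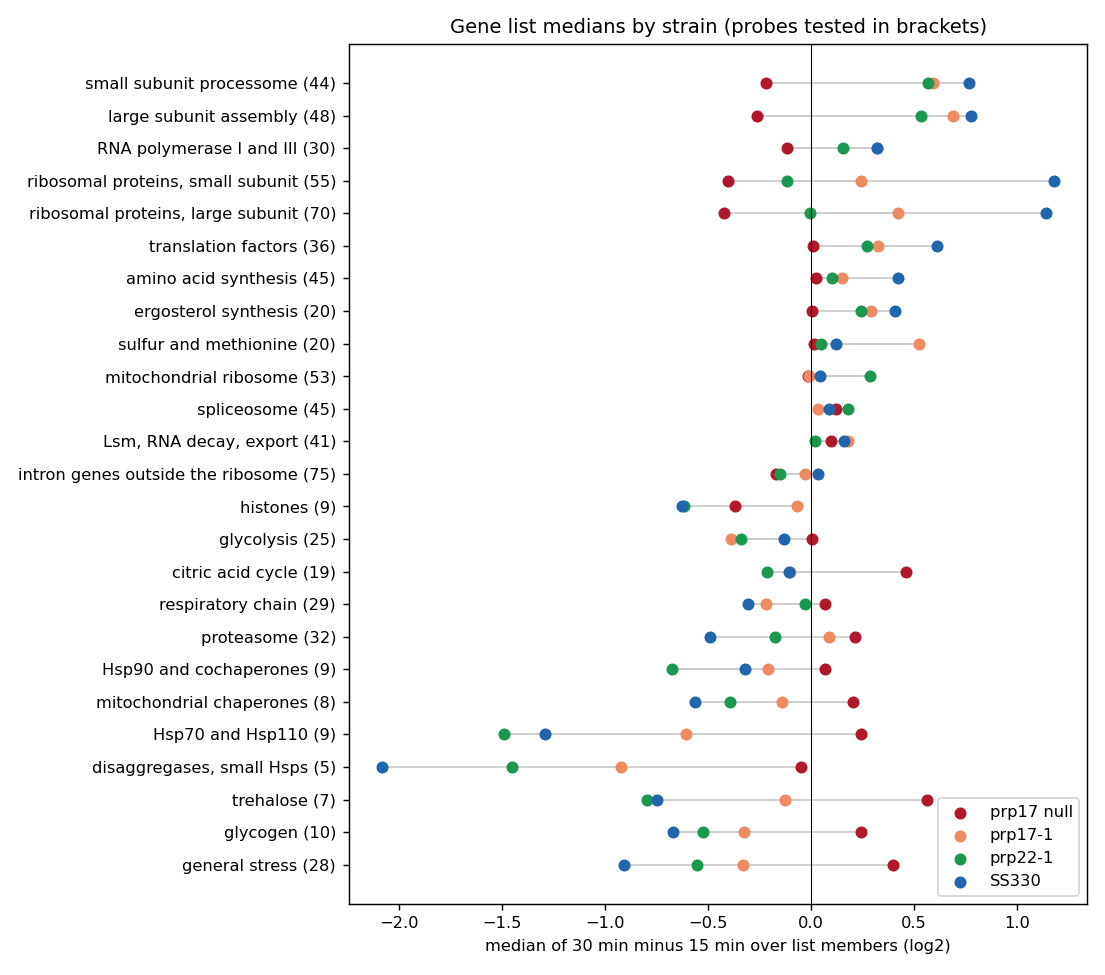
Dots give the median log2 difference of 30 minus 15 min over the tested members of each gene list in each strain, with the number of probes tested in brackets. For the processome and large subunit assembly lists the dots of prp17-1, prp22-1 and SS330 lie above 0.5 and that of prp17 null below 0, and for the Hsp70 list they lie below -0.5 and above 0, where quantile normalization turns the prp17 null values to 0.10, 0.05 and -0.12 and brings the others nearer to 0.

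Whether a strain turned back less was tested by setting its change against that of SS330. For prp17 null 2 of 4256 probes passed (0.047%), 1 higher and 1 lower (0.0235% each), with 391 at an unadjusted p under 0.05. YNL195C, a gene of unknown function, had 1.55 at 30 min and 1.28 at 15 min in prp17 null, against 0.59 and 3.19 in SS330. The difference of the changes was 2.87 ± 0.32 (SE, limma adjusted p = 0.0089). In prp17-1 it had 0.89 and 1.58, and prp22-1 had no value at 15 min. The SS330 value at 15 min was the highest of the 3 strains measured there. Both calls of this comparison were lost when prp17-1 or prp22-1 was left out of the fit or only the times to 30 min were used.

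ELP3, the catalytic subunit gene of the Elongator complex that modifies tRNA, had -3.07 at 30 min and -1.16 at 15 min in prp17 null. It had -1.07 and -1.58 in prp17-1, -0.55 and -1.32 in prp22-1, and -0.25 and -1.32 in SS330. All strains were alike at 15 min to within 0.5, and at 30 min prp17 null lay below and the others above their 15 min values. The change in prp17 null less that in SS330 was -2.98 ± 0.40 (SE, limma adjusted p = 0.0089). Without prp17 null ELP3 rose by 0.78 (adjusted p = 0.0401).

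A comparison of prp17 null with the mean of the other 3 strains, added after the data were seen, gave 8 of 4520 probes (0.177%), with 2 higher (0.0442%), 6 lower (0.133%) and 528 at an unadjusted p under 0.05. It was 2 without prp17-1, 0 without prp22-1 and 1 without SS330, and 1 with quantile normalization. ELP3 was again among those lower (-2.70 ± 0.37, SE, limma adjusted p = 0.00479). RRS1 and NUG1, both needed to assemble or export the large subunit, differed by -2.42 and -2.09. In prp17 null RRS1 had -2.95 at 30 min and -1.43 at 15 min, and its differences of 30 minus 15 min were -1.52 in prp17 null, 0.91 in prp17-1, 0.53 in prp22-1 and 1.26 in SS330. SRP14 of the signal recognition particle (-1.73), AIR1 of the nuclear RNA surveillance complex TRAMP (-1.57) and 1 probe with no gene name were also lower. Most genes that turned back in 3 strains did not pass here, with SIS1 at 2.07 (adjusted p = 0.31), BRX1 at -1.61 (0.24) and NOP13 at -0.99 (0.343).

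The 2 probes higher in prp17 null were ASP3-4 and PEP8. ASP3-4 encodes a secreted asparaginase with near-identical copies beside it, so the probe may read several genes. It had 0.88 at 30 min and -2.77 at 15 min in prp17 null, while its differences were between -0.04 and 0.02 in the other strains. PEP8, of the retromer complex that returns receptors from the endosome, had 1.72 and 0.20 at 30 and 15 min in prp17 null, and had 2.10 there at 5 min. Its differences were -0.31 in prp17-1, -0.44 in prp22-1 and -0.46 in SS330.

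In prp22-1 the change differed from that of SS330 for 9 of 4216 probes (0.213%), all 9 lower in prp22-1, with 406 at an unadjusted p under 0.05. They were RVS161, NST1, GPB2, YHK8, SKI3, ARP5, GYP1 and 2 probes with no gene name. RVS161, an amphiphysin-like protein gene of endocytosis, had 0.23 at 30 min and 3.31 at 15 min in prp22-1, against 0.24 and 0.39 in SS330. SKI3, of the complex that feeds mRNA to the exosome, had 0.05 and 2.01 in prp22-1, against 0.24 and 0.11 in SS330. The differences of the changes were -2.93 ± 0.39 for RVS161 and -2.09 ± 0.32 for SKI3 (SE, limma adjusted p = 0.0258 for both). The count was 0 with quantile normalization or without prp17-1, and 23 without prp17 null.

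All 9 probes had the highest of their values over all 24 arrays on the prp22-1 array at 15 min, between 1.32 and 3.31, against -0.79 to 0.72 on the other prp22-1 arrays. That array also held the fewest values of the 8. Of the tested probes 548 were highest there, against 86, 91 and 156 on the 15 min arrays of prp17 null, prp17-1 and SS330. Set against the mean of the other 3 strains, prp22-1 gave 73 of 4480 probes (1.63%), 8 higher (0.179%) and 65 lower (1.45%), with 621 at an unadjusted p under 0.05. Of the 65 lower 60 peaked on that array, and all 8 higher had their lowest value on it. The count of 73 was 6 with quantile normalization, 129 without prp17 null, 1 without prp17-1 and 20 without SS330. The part of the array itself in these calls was not tested.

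**Figure D5:**
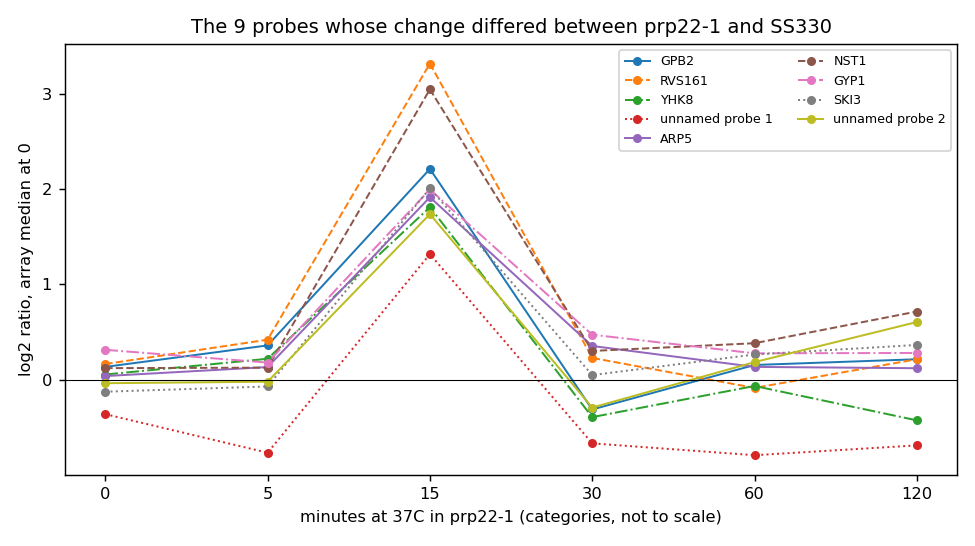
Log2 ratios in prp22-1 of the 9 probes whose change from 15 to 30 min differed from that in SS330, at the 6 times as evenly spaced categories. Each probe peaks at 15 min, between 1.32 and 3.31, and lies between -0.79 and 0.72 at the other times.

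By size alone, on values centred on the median, prp22-1 also had the most large falls. These falls are measured from the same prp22-1 array at 15 min, on which 548 tested probes had their highest value. The part of that array in them was not tested. Past 1 log2 unit, 57 probes were higher (1.26%) and 77 lower (1.7%) at 30 min in prp17 null, 79 (1.61%) and 29 (0.593%) in prp17-1, 91 (2.03%) and 255 (5.69%) in prp22-1, and 155 (3.24%) and 107 (2.23%) in SS330. The higher genes outnumbered the lower ones in prp17-1 and SS330, and the lower ones outnumbered the higher in prp17 null and prp22-1.

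For prp17-1 no probe of 4629 (0.0%) differed from SS330 in its change (limma, smallest adjusted p = 0.668), with 65 at an unadjusted p under 0.05. Against the mean of the other 3 strains 0 of 4893 passed in prp17-1, with 79 at an unadjusted p under 0.05, and 0 of 4790 in SS330, with 163. These counts do not show that prp17-1 and SS330 changed alike. ALD3, a stress-induced aldehyde dehydrogenase gene with one of the smallest p-values, had 3.34 at 30 min and 1.62 at 15 min in prp17-1 and 0.95 and 3.56 in prp22-1, against 1.32 and 1.99 in SS330. YNL046W, a gene of unknown function, had 0.36 and -0.85 in prp17-1, against -0.80 and -0.37 in SS330. Pearson's r across probes between strains in the change from 15 to 30 min was 0.49 for prp17-1 with SS330 (4629 probes), 0.33 for prp22-1 with SS330 (4216) and -0.23 for prp17 null with SS330 (4256). It was 0.21 between prp17-1 and prp22-1, 0.05 between prp17 null and prp17-1, and -0.15 between prp17 null and prp22-1.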

How the data were processed

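Each array set the Cy5 signal of total RNA of 1 strain and time against the Cy3 signal of genomic DNA, per the labels. The authors deposited log ratios, used here as log2 values. What base, background correction, normalization and spot filters they used is not given in the sources used here. Their direction was read from the values. Each probe's baseline is unknown and cancels between arrays, so no level is compared between probes. A gene name was found for 5527 of 6350 probes, 5493 different genes in all, and 823 probes are unnamed.

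Arrays were centred on their median. A probe was tested with a value on at least 20 arrays and both values in at least 3 strains, which left out 1296. The fit, in limma 3.58.1 under R 4.3.3, used all 24 arrays, with strain as a block and time as a factor, and p-values were adjusted by Benjamini-Hochberg over all tested probes (called under 0.05). A strain's change was compared with that of SS330 with free levels for each mutant at 15 and 30 min. Scatter of the arrays at 15 and 30 min therefore does not enter the p-values of that comparison. Against the mean of the others only the named strain had free levels at these times, so the scatter of its own 15 and 30 min arrays does not enter. The strain block is what pairs 30 with 15 min, since the arrays of a strain come from 1 course. The fits of 30 against 15 min over 4 and over 3 strains were tested on simulated data. So were those of prp17 null against SS330 and against the other strains, but no other fit. The simulated noise was independent between probes and arrays, so scatter shared within a real array was not tried. Tables and figures used Python 3.11.15, pandas 2.3.3 and matplotlib 3.10.9. The number of arrays limits the precision.

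Named genes were the 8 largest rises and 8 largest falls with the same sign in every strain with values, the 8 largest that turned back each way, the 6 largest differences each way per strain comparison or the 3 with the smallest p where fewer than 3 passed, up to 3 called members of each of 35 gene lists, and CDC40 and PRP22. GYP1 was named to complete a list of 9. With 1 call over the 4 strains, the rule was applied to the 3 strains without prp17 null. That fit, each strain against the mean of the others, the split by frame, the shares under other scalings and the fits without the prp22-1 array at 15 min were chosen after seeing the data. Members and lists were chosen with earlier results of these data known.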

Additional observations from a re-analysis of the deposited data

Results flagged for a closer look

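In 88 sets of 4 strains (a gene or a list median), the highest or lowest strain stood far from the others in 11. Chance alone gives such a gap in about 1 of 20 sets, but many of these genes were named because 1 strain differed or from a fit without prp17 null, so that rate does not apply to them. The cause was not tested. The G1 and S phase list had a median of -0.28 in prp17 null, against 0.01 to 0.05 in the other strains, and the citric acid cycle list had 0.46 in prp17 null, against -0.21 to -0.10 in the others. With quantile normalization the values in prp17 null were -0.04 and 0.05. Among genes that rose in the other strains, NOP13 had 0.29 in prp17 null, NOP14 0.16, KRE33 -0.52, NUG1 -1.23 and AIR1 -0.98. ASP3-4 stood at 3.65 and PEP8 at 1.51 in prp17 null, and PRP3, which fell in the other strains, at 0.18. MLC1, a myosin light chain gene, stood at 1.31 in prp22-1.

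The change from 15 to 30 min differed from that in SS330 by limma's test of the difference in prp17 null for YNL195C (2.87) and ELP3 (-2.98). In prp22-1 it differed for NST1 (-3.22), RVS161 (-2.93), GPB2 (-2.63), YHK8 (-2.38), SKI3 (-2.09) and ARP5 (-2.07), each of which had its highest value of all arrays on the prp22-1 array at 15 min.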

How the results depend on the processing

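All counts but that of prp17-1 against SS330 depended on the setting, and the cause was not tested in any of them. In some settings fewer arrays or probes entered. Over the 4 strains the 1 call, and the 1 that turned back, became 0 each with quantile normalization, with a value on all 8 arrays, with no replicate block and at an adjusted p under 0.01. Both became 2 with a value on at least 12 arrays and 7 without the prp22-1 array at 15 min, and the first 0 with only the 8 arrays at 15 and 30 min. Leaving out each strain gave 0 to 221 calls and 0 to 201 that turned back. For the 3 strains the 221 calls and 201 that turned back became 0 and 0 with quantile normalization, 81 and 75 with no replicate block, 10 and 10 at an adjusted p under 0.01, and 1 to 62 and 1 to 56 with each strain left out. The 221 kept their sign in every alternative in which they were tested. For prp17 null against SS330 the 2 calls became 1 with quantile normalization, a value on all 8 arrays or trend and robust settings, and 0 with the 16 arrays to 30 min or with prp17-1 or prp22-1 left out (0 to 0). For prp17-1 the count was 0 under all alternatives run. For prp22-1 against SS330 the 9 became 5 as deposited, 17 with trend and robust settings, 0 with quantile normalization, the 16 arrays, all 8 values or an adjusted p under 0.01, and 0 to 23 with a strain left out. Against the mean of the others, the 8 of prp17 null became 4 as deposited, 1 with quantile normalization or the 8 arrays, 2 at an adjusted p under 0.01 and 0 to 2 with a strain left out. The 73 of prp22-1 became 6 with quantile normalization, 0 with the 8 arrays, 15 at an adjusted p under 0.01 and 1 to 129 with a strain left out.

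The share of early rises that went back was, with quantile normalization, 56.6% in prp17 null, 69.3% in prp17-1, 54.2% in prp22-1 and 73.8% in SS330, and as deposited 16.8% in prp17 null and 70.2% in prp22-1. For the early falls the shares were 65.9%, 74.7%, 75.9% and 83.3% in the same strains with quantile normalization, and as deposited 46.8% in prp17 null and 87.5% in prp22-1. With the first change called without prp17 null these shares became 34.1% for prp17 null, 83.4% for prp17-1 and 96.2% for SS330. Of the 140 list medians 29 moved by more than the SD between strains with quantile normalization and 2 as deposited. With a strain left out the difference of CDC40 ran from -0.47 to 0.014 (turned without prp17 null) and that of PRP22 from -0.34 to 0.20 (turned without prp22-1), and without the prp22-1 array at 15 min PRP22 turned to 0.091. The values hold no signal over background, so what depth limits cannot be given, and a probe with no value at 15 or 30 min in a strain says nothing of that strain.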

Other observations

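Some gene groups with no call or 1 call among their members had medians that differed between strains. Over all tested probes 55.6% were higher at 30 than at 15 min in prp17 null, 53.0% in prp17-1, 51.4% in prp22-1 and 52.2% in SS330. Of 20 sulfur assimilation and methionine genes 18 were higher at 30 than at 15 min in prp17-1, with a median difference of 0.52, against 0.01 in prp17 null, 0.05 in prp22-1 and 0.12 in SS330. With quantile normalization it was 0.52 in prp17-1, 0.02 in prp17 null and 0.16 in SS330, and turned to -0.06 in prp22-1. Of the ergosterol synthesis genes 10 of 20 were higher in prp17 null, 18 of 20 in prp17-1, 16 of 20 in prp22-1 and 17 of 20 in SS330, with medians of 0.00, 0.29, 0.24 and 0.41. The medians with quantile normalization were -0.02, 0.23, 0.39 and 0.50 in the same strains. Of the mitochondrial ribosomal protein genes 39 of 49 were higher in prp22-1 (median 0.28, or 0.25 with quantile normalization), against 28 of 50 in SS330 (median 0.04, or 0.07). All 24 glycolysis genes with values were lower in prp22-1 (median -0.34), 21 of 24 in prp17-1 (-0.39) and 11 of 24 in prp17 null (0.01), against 17 of 25 in SS330 (-0.13). Quantile normalization gave glycolysis medians of -0.42 in prp22-1, -0.41 in prp17-1, 0.04 in prp17 null and -0.18 in SS330.

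Histone genes, whose mRNA had a median difference of -0.74 over the strains by 5 min, had medians below 0 in every strain between 15 and 30 min as well. Their median difference of 30 minus 15 min was -0.37 in prp17 null, -0.07 in prp17-1, -0.62 in prp22-1 and -0.62 in SS330, and 0 of 9 was called. With quantile normalization it was -0.05 in prp17 null, -0.18 in prp17-1, -0.83 in prp22-1 and -1.35 in SS330, so the order of prp17 null and prp17-1 turned. YGP1, a secreted glycoprotein gene induced by stress, had 5.70 at 30 min and 3.84 at 15 min in prp17 null, and 2.27 and 4.83 in prp22-1, against 2.91 and 3.31 in SS330. These are descriptions, and whether the strains differ was not tested for the lists.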
